A study of Mus musculus with 23 samples.

Results

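The libraries described here are small RNA libraries of group 2 innate lymphoid cells (ILC2) of the mouse lung, 4 taken after IL-33 was given into the airways (IL-33 ILC2) and 4 from animals whose labels give no treatment (lung ILC2). They are 8 of the 23 libraries of the series and were chosen by their labels alone, without reference to any measured value. Both groups were sorted from the lungs of wild-type mice as CD45+, Thy1+, lineage-negative, CD4-, CD25+ and ST2+ cells. IL-33 ILC2 came from mice that received 500 ng of IL-33 by oropharyngeal aspiration over 3 days. For lung ILC2 the labels do not say whether vehicle alone was given. No source used here gives strain, age or sex. Nothing in the labels ties each library to its own animal, and the p-values therefore measure a spread between libraries, which may be technical in part. In the reported fit of single microRNAs that spread is shared over all 23 libraries of the series, not only these 8. The study concerns the control of ILC2 homeostasis and function by microRNAs in allergic inflammation, and the 8 libraries set ILC2 in the challenged airway against ILC2 at rest.

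ILC2 are tissue-resident lymphocytes that make type 2 cytokines such as IL-5 and IL-13 without an antigen receptor. IL-33 is an alarmin released by damaged epithelium and other barrier cells, and its receptor subunit ST2, one of the proteins used for the sort, signals through MyD88 to NF-κB. A microRNA is cut as an arm of a hairpin and directs Argonaute to messenger RNAs mainly through its seed, the bases near its 5′ end, so microRNAs with the same seed can share targets. miR-146a is a target of NF-κB whose own known targets include the adaptors Traf6 and Irak1, and miR-155 and miR-21a are commonly raised in activated lymphocytes.

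The mature sequences on which the results turn are given below as RefSeq holds them for build GRCm38.p6, 5′ to 3′, with the seed (bases 2 to 8) in capitals. The pairs miR-146a and miR-146b, and miR-103 and miR-107, are shown because they share a seed and nearly all other bases. The arms of the miR-142a hairpin are shown because their ratio is described below. The let-7 members shown are among the most abundant microRNAs of both groups.
miR-21a-5p: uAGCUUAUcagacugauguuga
miR-21a-3p: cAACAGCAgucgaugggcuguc
miR-146a-5p: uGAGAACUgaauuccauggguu
miR-146b-5p: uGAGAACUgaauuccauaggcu
miR-155-5p: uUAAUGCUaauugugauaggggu
miR-132-3p: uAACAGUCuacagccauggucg
miR-142a-5p: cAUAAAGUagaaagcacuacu
miR-142a-3p: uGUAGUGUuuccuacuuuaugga
let-7a-5p: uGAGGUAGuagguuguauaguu
let-7f-5p: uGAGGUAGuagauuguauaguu
let-7i-5p: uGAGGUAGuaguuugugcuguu
miR-92a-3p: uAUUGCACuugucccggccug
miR-92a-1-5p: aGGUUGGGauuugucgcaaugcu
miR-103-3p: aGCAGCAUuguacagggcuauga
miR-107-3p: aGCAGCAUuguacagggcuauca

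Counted from 1 at the 5′ end, miR-146b-5p differs from miR-146a-5p by G18A and U21C, let-7f-5p from let-7a-5p by G12A, and miR-107-3p from miR-103-3p by G22C. Reads of such neighbours can be told apart only at those bases. Reads without the last 2 bases cannot tell miR-103-3p from miR-107-3p, and 9.98% of the deposited values above 0 were fractional. miR-21a-5p lies at chr11:86584120-86584141 on the minus strand, inside an exon of the protein-coding gene Vmp1 as well as of Mir21a. miR-146a-5p lies at chr11:43374435-43374456 on the minus strand, in an exon of Mir146 alone. miR-146b-5p lies at chr19:46342790-46342811 on the plus strand in an intron of Mfsd13a. miR-155-5p lies at chr16:84714143-84714165 on the plus strand in an exon of the long noncoding RNA Mir155hg. The arms of miR-142a lie at chr11:87756867-87756887 and chr11:87756903-87756925 on the plus strand in an intron of Mir142hg, and Mir142b is annotated on the opposite strand of the same bases.

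The totals of the 4 IL-33 ILC2 libraries were 504350, 89680, 471347 and 1482054 counts, against 137286, 1412419, 85687 and 292559 counts in the lung ILC2 libraries. Each library number belongs to 1 of 4 count tables, so the IL-33 ILC2 and lung ILC2 libraries of a number form a pair, pairs 1 to 4, and are compared within it. In 3 of the 4 pairs the IL-33 library was the deeper one, by 3.67, 5.5 and 5.07 times in pairs 1, 3 and 4, and in pair 2 its depth was 0.0635 times that of its partner. The scaling factors of the trimmed mean method (TMM) moved against depth in all 4 pairs. Their log2 difference was −1.11, −1.88 and −1.23 in pairs 1, 3 and 4 and 0.55 in pair 2, and the part of depth in the results was not tested. The scaling moves every fitted change: the median log2 change of all tested microRNAs was 0.66 under TMM, −0.01 under DESeq2 size factors and −0.20 under library totals, and fitted changes are to be read against these. Every library carried both arms of miR-142a, which marks blood cells in general. The proteins and messenger RNAs that define ILC2 are not measured by these libraries, so the identity of the cells as ILC2 cannot be checked further than that. Markers of other cells are described below.

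A few microRNAs made up most of the counts in both groups. The 10 most abundant held 74.6%, 50.4%, 70.7% and 79.9% of the counts in the IL-33 ILC2 libraries and 67.1%, 48.8%, 52.1% and 67.4% in the lung ILC2 libraries. miR-21a-5p ranked first in IL-33 ILC2 libraries 2, 3 and 4 and in no lung ILC2 library. The first place went to miR-24-3p in IL-33 ILC2 library 1, and in the lung ILC2 libraries to let-7i-5p, miR-24-3p, let-7i-5p and let-7f-5p.

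**Figure D1:**
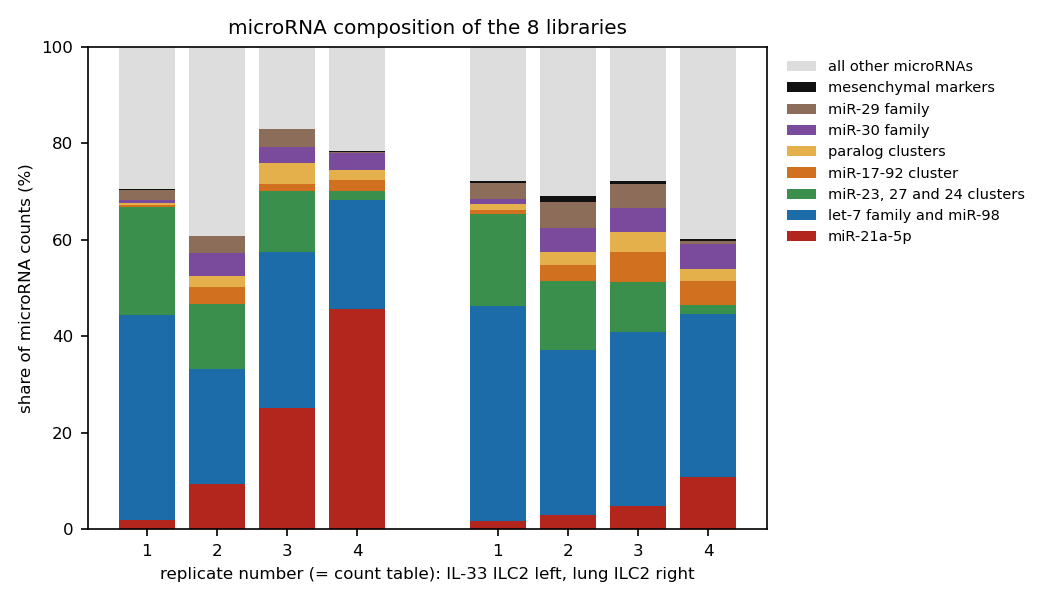
Share of all microRNA counts (%) in each library, stacked by microRNA family, with the 4 IL-33 ILC2 libraries on the left and the 4 lung ILC2 libraries on the right. miR-21a-5p, at the foot of each bar, takes 45.6% of IL-33 ILC2 library 4, and the let-7 family takes 22.6% of that library against 34.0% of lung ILC2 library 4.

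With the count table as a block, edgeR's quasi-likelihood test found 2 of 384 tested microRNAs changed at an adjusted p below 0.05, or 0.521%. Both were higher in IL-33 ILC2: miR-21a-5p, by 2.68 ± 0.47 on the log2 scale (standard error, adjusted p = 0.000505), and miR-146a-5p, by 2.26 ± 0.54 (adjusted p = 0.0263). No microRNA was called lower. At an unadjusted p below 0.05 there were 18 higher and 6 lower. DESeq2 with the block called 1 higher, miR-21a-5p, and 2 lower, miR-92a-1-5p and let-7f-1-3p, and limma on the deposited RPM values called 0, with 47 at an unadjusted p below 0.05. Without the block edgeR called 0 of 384, with 22 at an unadjusted p below 0.05, and miR-21a-5p then had an adjusted p of 0.436 and miR-146a-5p one of 0.631. Leaving out 1 library at a time gave 0 to 3 calls: 0 without IL-33 ILC2 library 4 or lung ILC2 library 2, 1 without IL-33 ILC2 library 1 or lung ILC2 library 3 or 4, and 3 without lung ILC2 library 1. The biological coefficient of variation was 1.13 with the block and 1.54 without it.

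**Figure D2:**
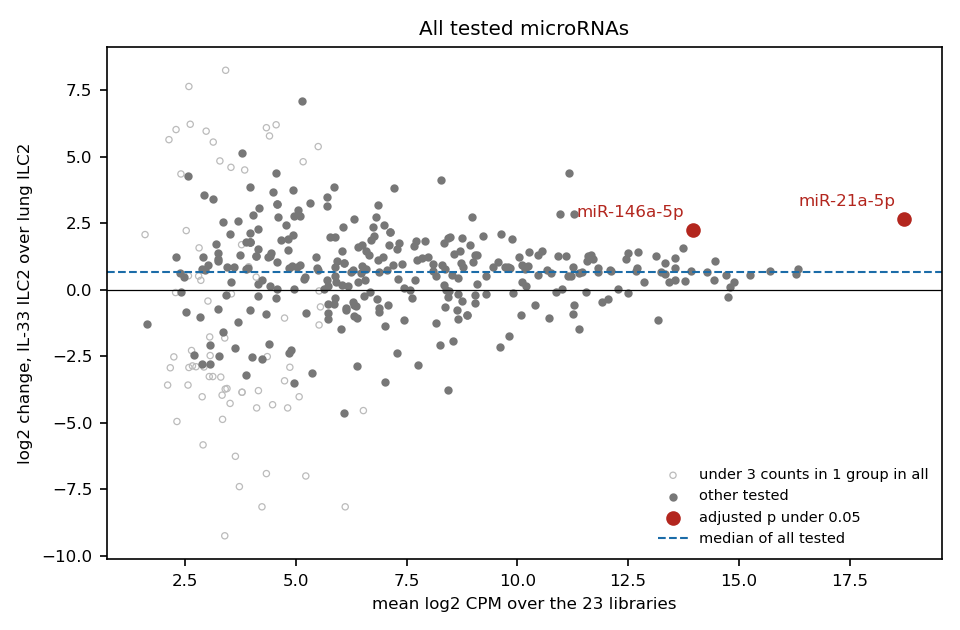
Log2 change of IL-33 ILC2 over lung ILC2 (vertical axis) against mean log2 CPM (counts per 1000000) over the 23 libraries of the fit (horizontal axis), 1 point for each of the 384 tested microRNAs. The 2 called microRNAs, miR-21a-5p and miR-146a-5p, are both abundant and lie above the median change of 0.66.

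miR-21a-5p, which lies in the last part of the Vmp1 transcript and is known to target Pdcd4, was the microRNA with the smallest p. Its level was 18794, 92629, 250395 and 455865 counts per 1000000 counts of the library (CPM) in IL-33 ILC2 libraries 1 to 4, against 16943, 29581, 47954 and 107113 CPM in lung ILC2 libraries 1 to 4. It was higher in the IL-33 ILC2 library of every pair, but the ranges of the groups overlap because the level also differs between tables in both groups. In pair 1 the pair differed by only 0.15 on the log2 scale of CPM, and in pairs 2, 3 and 4 by 1.65, 2.38 and 2.09. Its rank by abundance was 14, 1, 1 and 1 in IL-33 ILC2 and 12, 12, 7 and 2 in lung ILC2. The mean was 204421 ± 193470 CPM in IL-33 ILC2 and 50398 ± 39897 CPM in lung ILC2 (SD, n = 4 each). In library 4 after IL-33 it held so much of the library that the CPM of every other microRNA is lowered by it, so shares are given below also per count other than miR-21a-5p.

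The rise of miR-21a-5p was seen under other scalings too, at 1.90 with DESeq2 size factors (adjusted p = 0.00539) and 1.79 with library totals (adjusted p = 0.023), both by edgeR with the block. With library totals that leave out miR-21a-5p it was 2.09 and the call was lost (adjusted p = 0.161). The call was also lost with limma on RPM (1.57, adjusted p = 0.127), without both libraries of pair 2 (2.87, edgeR adjusted p = 0.204) and without those of pair 3 (2.23, adjusted p = 0.116). Of single libraries, it was lost without IL-33 ILC2 library 4 (log2 change 2.29, edgeR adjusted p = 0.322) and without lung ILC2 library 2 (2.70, adjusted p = 0.1). With only the 8 libraries in the fit it was 2.03, not called (edgeR adjusted p = 0.216). The log2 change stayed between 1.57 and 3.22 in 23 alternative analyses, and edgeR, DESeq2 or limma called it in 14 of them. miR-21a-5p is the only microRNA of its seed with counts in these libraries, and its seed family was also the only one called of 322, or 0.311%, with a log2 change of 2.56 ± 0.52 and an edgeR adjusted p of 0.00629. No family was called without IL-33 ILC2 library 4 or lung ILC2 library 3, 2 were without lung ILC2 library 2 and 3 without lung ILC2 library 1.

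The other arm of the hairpin, miR-21a-3p, was far less abundant. It stood at 3.97, 256, 906 and 514 CPM in IL-33 ILC2, against 386, 77.9, 408 and 161 CPM in lung ILC2. It was higher after IL-33 in pairs 2, 3 and 4 and lower in pair 1, where the IL-33 library held 2 counts of it, and it was not called (log2 change 1.44, edgeR adjusted p = 0.647).

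Ratios of 2 microRNAs within a library do not depend on how the libraries are scaled. The pairs were chosen after the values had been seen. The ratio of miR-21a-5p to let-7a-5p was 0.447, 2.14, 5.06 and 13.9 in IL-33 ILC2, against 0.384, 0.461, 0.719 and 2.03 in lung ILC2. It was higher after IL-33 in 4 of 4 pairs, by 2.01 ± 1.22 on the log2 scale (SD of the 4 pairs), with an exact two-sided sign-flip p of 0.13, which is the smallest that 4 pairs allow. Of the 8 other partners tried, the ratio was higher in 4 of 4 pairs for let-7i-5p, let-7f-5p, miR-16-5p, miR-29a-3p, miR-92a-3p and miR-142a-5p, with mean log2 differences from 1.58 to 2.76. For miR-24-3p and for miR-146a-5p it was higher in 3 of 4, and in pair 1 it was lower for both.

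miR-146a-5p had 66660, 23260, 10054 and 3674 CPM in IL-33 ILC2 libraries 1 to 4, against 11574, 9381, 8589 and 2529 CPM in lung ILC2. It too was higher in the IL-33 library of every pair, and again the ranges overlap. The pairs differed by 2.53, 1.31, 0.23 and 0.54 on the log2 scale of CPM, so the largest gap lay in pair 1, where miR-21a-5p had its smallest, and the smallest gap in pair 3, where miR-21a-5p had its largest. Its rank by abundance was 4, 13, 20 and 29 in IL-33 ILC2 and 15, 29, 27 and 43 in lung ILC2. The mean was 25912 ± 28363 CPM in IL-33 ILC2 and 8019 ± 3871 CPM in lung ILC2 (SD, n = 4 each).

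The call of miR-146a-5p depended on more of the choices than that of miR-21a-5p. It was kept in 3 of 23 alternative analyses, in which the log2 change ran from 1.15 to 2.82. With DESeq2 size factors it was 1.57 (edgeR adjusted p = 0.398) and with library totals 1.29 (adjusted p = 0.594). With only the 8 libraries in the fit it was 1.59, not called (edgeR adjusted p = 0.556). Leaving out 1 library at a time kept the call in 2 of 8 fits, those without IL-33 ILC2 library 2 or 3. Without IL-33 ILC2 library 1 the log2 change was 1.62 and the edgeR adjusted p 0.247.

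**Figure D3:**
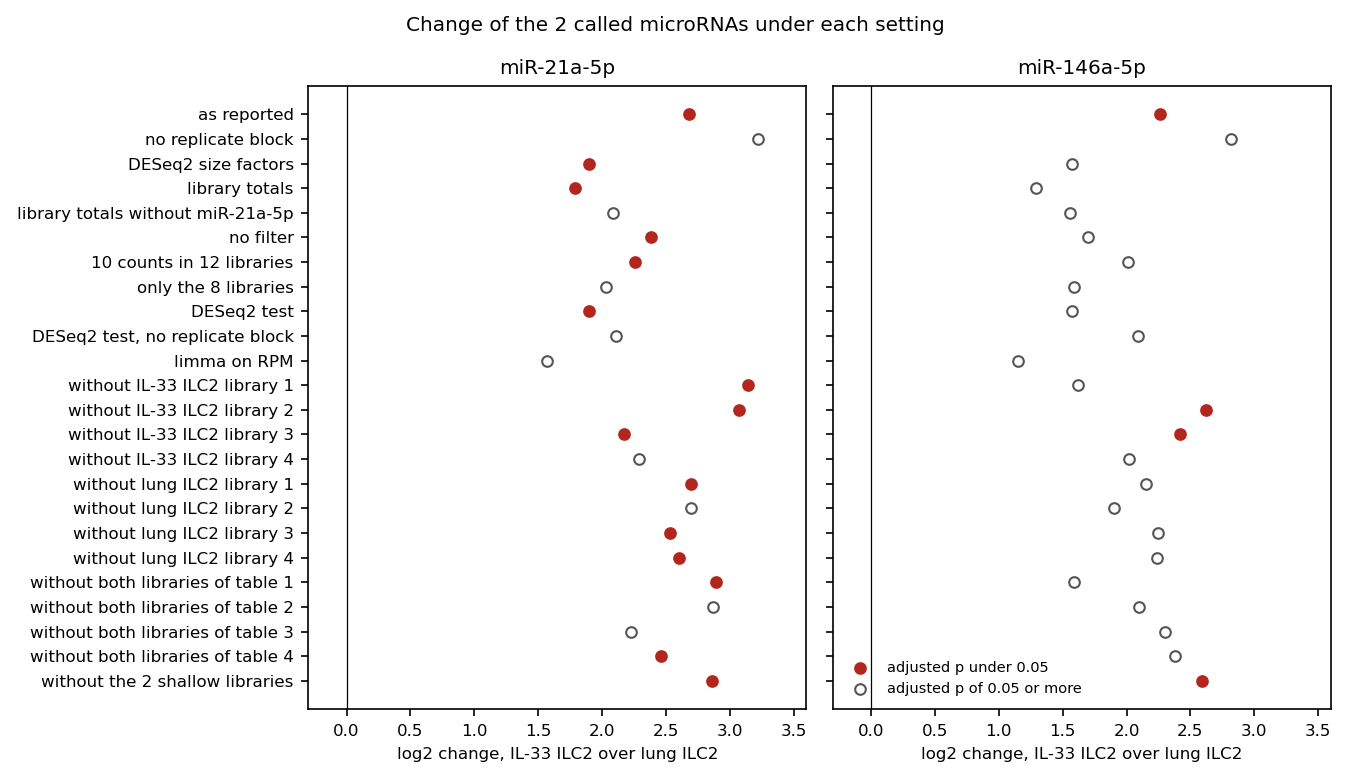
Log2 change of miR-21a-5p (left) and miR-146a-5p (right) in IL-33 ILC2 over lung ILC2 in the reported fit and in each of 23 alternatives. Filled points have an adjusted p under 0.05. All points lie above 0, from 1.57 to 3.22 for miR-21a-5p and from 1.15 to 2.82 for miR-146a-5p.

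miR-146b-5p is made from a separate gene and shares the seed and most other bases of miR-146a-5p. It had 26375, 9969, 5317 and 5139 CPM in IL-33 ILC2, against 20643, 10736, 6909 and 9632 CPM in lung ILC2. It was higher after IL-33 in pair 1 and lower in pairs 2, 3 and 4, and was not called (log2 change 0.72 ± 0.61, edgeR adjusted p = 0.672). The ratio of miR-146a-5p to miR-146b-5p within a library was 2.53, 2.33, 1.89 and 0.715 in IL-33 ILC2, against 0.561, 0.874, 1.24 and 0.263 in lung ILC2. It was higher in 4 of 4 pairs, by 1.41 ± 0.64 on the log2 scale (SD of 4 pairs, exact two-sided p = 0.13, the smallest 4 pairs allow). Of its 7 other partners, chosen after the values were seen, the ratio was higher in 4 of 4 pairs for let-7a-5p, miR-29a-3p, miR-24-3p and miR-92a-3p, with mean log2 differences from 1.26 to 2.34. For let-7i-5p, let-7f-5p and miR-142a-5p it was higher in 3 of 4 pairs, and pair 3 gave log2 differences of −0.03, −0.22 and −0.33. miR-146a-5p was the more abundant of the miR-146 pair in 3 of 4 IL-33 ILC2 libraries and in 1 of 4 lung ILC2 libraries.

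Summed over the seed they share, the miR-146 microRNAs had 93035, 33229, 15371 and 8813 CPM in IL-33 ILC2, against 32217, 20117, 15498 and 12162 CPM in lung ILC2. The sum was higher in pairs 1 and 2 and lower in pairs 3 and 4. It was not called, with a log2 change of 1.19 ± 0.53 and an edgeR adjusted p of 0.65. The opposite arm, miR-146a-3p, had 0, 0, 36.1 and 2.02 CPM in IL-33 ILC2 against 0, 2.12, 0 and 0 CPM in lung ILC2, too few to be tested.

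**Figure D4:**
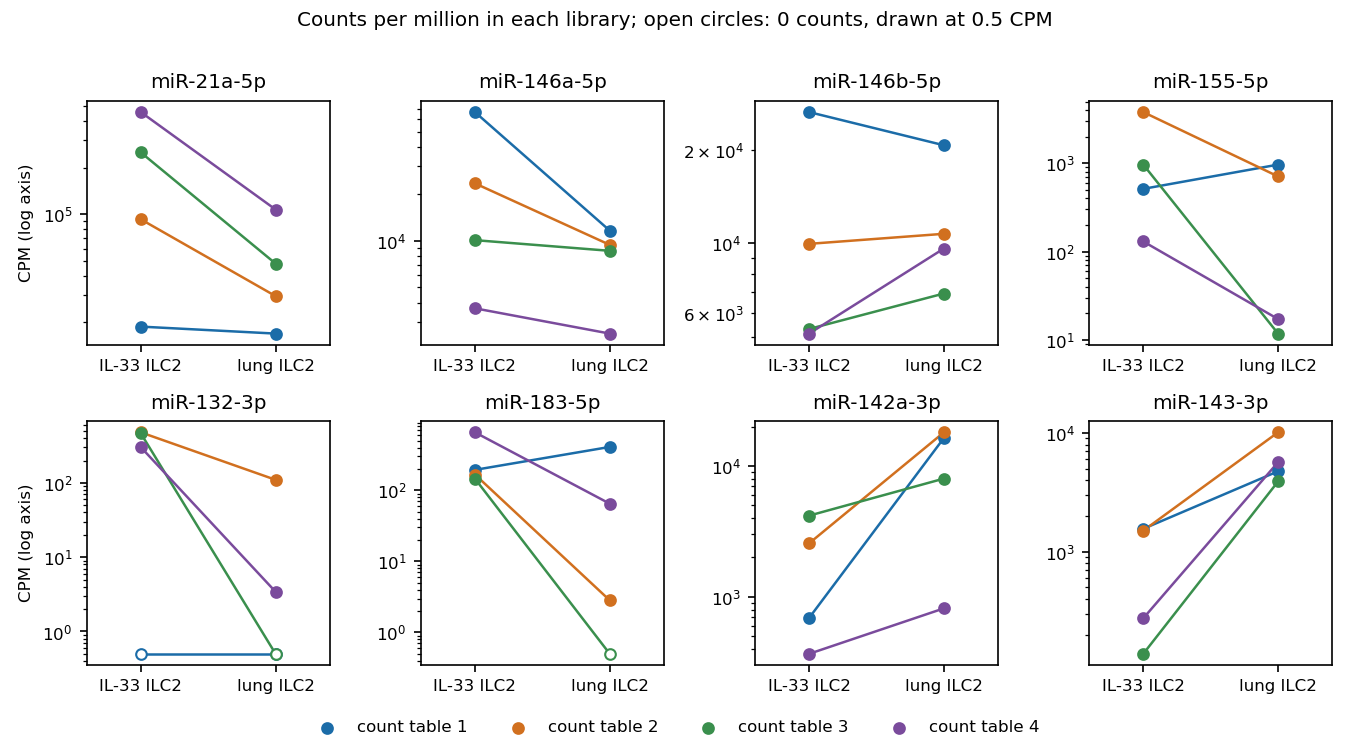
CPM of 8 microRNAs on a log axis, each with IL-33 ILC2 at the left and lung ILC2 at the right and 1 line for each count table. Every line of miR-21a-5p and miR-146a-5p is higher at its IL-33 end, and every line of miR-142a-3p and miR-143-3p is lower there. Open circles are libraries with 0 counts.

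A list of 26 entries of microRNAs known to rise in activated lymphocytes, among them miR-21a, miR-146a, miR-146b, miR-155, miR-132, miR-212, the miR-183 cluster, miR-210, miR-221 and miR-222, had 21 tested members. Of these 2 were called higher and 0 lower, and 5 were higher and 0 lower at an unadjusted p below 0.05 by edgeR. The list was chosen with earlier results of these data known and holds both calls, so these counts are no independent support. The fitted change was above 0 for 17 and below 0 for 4. Over all 384 tested microRNAs 2 were called higher, 18 were higher and 6 lower at an unadjusted p below 0.05, and 249 changes were above 0 and 135 below. The median log2 change of the list was 1.19 under TMM, 1.07 under DESeq2 size factors and 1.11 under library totals, beside 0.66, −0.01 and −0.20 over all tested microRNAs. The list made up 11.4%, 13.3%, 27% and 46.8% of the counts in IL-33 ILC2, against 5.46%, 5.38%, 6.65% and 12.1% in lung ILC2. Its share was higher after IL-33 in 4 of 4 pairs, by 17.2 ± 13.3 percentage points (SD of 4 pairs, exact two-sided p = 0.13). With miR-21a-5p left out of the list and of the total, the shares were 9.67%, 4.47%, 2.62% and 2.18% in IL-33 ILC2 and 3.83%, 2.49%, 1.95% and 1.58% in lung ILC2. They were still higher in 4 of 4 pairs, and the other call, miR-146a-5p, remains in them.

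miR-155-5p, which is processed from the Mir155hg transcript and is required for full ILC2 responses in mice, had 514, 3825, 970 and 130 CPM in IL-33 ILC2, against 969, 711, 11.7 and 17.1 CPM in lung ILC2. In pairs 2, 3 and 4 it was higher after IL-33, by 2.43, 6.26 and 2.85 on the log2 scale of CPM, and in pair 1 it was lower, with a difference of −0.91. The 11.7 CPM of lung ILC2 library 3 rest on 1 count. Over all pairs the log2 change was 2.85 ± 1.31 and the edgeR adjusted p 0.591.

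miR-132-3p and miR-183-5p, named here after their values were seen, had the smallest p of the list after the 2 called members. miR-132-3p, which CREB is known to induce, had 0, 479, 465 and 303 CPM in IL-33 ILC2 against 0, 110, 0 and 3.42 CPM in lung ILC2. It was absent from both libraries of pair 1 and higher after IL-33 in the other 3 pairs (log2 change 4.14 ± 1.64, edgeR adjusted p = 0.591). miR-183-5p, part of a cluster known to be induced by IL-2 in T cells, had 194, 167, 146 and 655 CPM in IL-33 ILC2 against 408, 2.83, 0 and 64.9 CPM in lung ILC2. It was lower in pair 1 and higher in the others (2.86 ± 1.10, adjusted p = 0.591). miR-182-5p of the same cluster had 101, 312, 27.6 and 1062 CPM in IL-33 ILC2 against 357, 104, 0 and 410 CPM in lung ILC2. It was lower in pair 1 and higher in pairs 2 and 4, and in pair 3 the IL-33 value lay below the 35 CPM that a count of 0 allows in its partner.

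Other members of the list gave mixed values. miR-210-3p, the microRNA best known for its induction by hypoxia, had 325, 435, 683 and 26.3 CPM in IL-33 ILC2 and 2396, 302, 23.3 and 37.6 CPM in lung ILC2. miR-221-3p, made from the same cluster as miR-222, had 420, 468, 696 and 127 CPM in IL-33 ILC2 and 641, 1880, 2206 and 653 CPM in lung ILC2. It was thus lower in 4 of 4 pairs, while miR-222-3p was higher in pairs 1 and 2 and lower in pairs 3 and 4. Neither was called (edgeR adjusted p = 0.859 for miR-221-3p and 0.695 for miR-222-3p).

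Without lung ILC2 library 1, edgeR called 3 microRNAs higher, miR-21a-5p, miR-183-5p and miR-425-5p, and no longer miR-146a-5p. miR-425-5p, which is made from an intron of Dalrd3, had 12287, 3156, 558 and 103 CPM in IL-33 ILC2 against 4509, 0, 0 and 0 CPM in lung ILC2. The limit that a count of 0 allows in lung ILC2 libraries 2, 3 and 4 is 2.12, 35 and 10.3 CPM, below the IL-33 library of the same pair each time. In the fit of all libraries its log2 change was 4.38 ± 2.13 and its edgeR adjusted p 0.591.

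Few microRNAs differed in the same direction in every pair. By CPM 11 of the 384 tested, or 2.86%, were higher in 4 of 4 pairs and 22, or 5.73%, were lower. Only miR-27a-5p was higher with no overlap between the groups and only miR-143-3p lower with none, 0.26% each. miR-27a-5p had 1465, 1305, 1774 and 1841 CPM in IL-33 ILC2, against 983, 1110, 0 and 718 CPM in lung ILC2, with a log2 change of 2.01 ± 1.19 that was not called (edgeR adjusted p = 0.603). The 0 in lung ILC2 library 3 allows up to 35 CPM.

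Among microRNAs whose mean log2 CPM was 6 or more, miR-101a-3p had the smallest p of those lower in every pair, with 0, 223, 690 and 5676 CPM in IL-33 ILC2 against 219, 1844, 875 and 34790 CPM in lung ILC2 (log2 change −1.48 ± 0.84, edgeR adjusted p = 0.603). miR-10a-5p, encoded in the Hoxb cluster, had 161, 245, 212 and 1667 CPM in IL-33 ILC2 against 401, 1319, 1540 and 2639 CPM in lung ILC2 (−0.75 ± 1.22, adjusted p = 0.836). Neither was called. On the higher side, miR-30e-3p had 4517, 1316, 967 and 6913 CPM in IL-33 ILC2 against 3540, 1216, 327 and 6686 CPM in lung ILC2, so that the gap was wide in pair 3 and small in the others (1.33 ± 0.68, adjusted p = 0.591). miR-296-3p, let-7i-3p and miR-374c-5p were also higher by CPM in every pair, with log2 changes of 1.92, 2.65 and 1.86 and none called. In at least 1 pair of each of miR-296-3p and let-7i-3p the IL-33 value lay below what a count of 0 allows in the lung ILC2 library.

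Among the 78 microRNAs with at least 10 counts in all 8 libraries, 3 were higher in 4 of 4 pairs, or 3.85%, and 16 lower, or 20.5%. The 3 were miR-21a-5p, miR-146a-5p and miR-30e-3p. Per count other than miR-21a-5p there were 5 higher, or 6.41%, with miR-103-3p and miR-28a-3p added, and 10 lower, or 12.8%. miR-103-3p had the smallest p of these added members (log2 change 1.59, unadjusted p = 0.00289, edgeR adjusted p = 0.278). miR-107-3p, which differs from it at 1 base, had a log2 change of 0.91 and an adjusted p of 0.652. miR-103-3p, miR-107-3p, miR-28a-3p and let-7f-1-3p are named after their values were seen.

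The let-7 family, which accumulates in differentiated and resting cells and is known for holding back growth, was the most abundant family by mean share in both groups, though in IL-33 ILC2 library 4 miR-21a-5p alone held more. With miR-98 it made up 42.5%, 24%, 32.5% and 22.6% of the counts in IL-33 ILC2, against 44.5%, 34.2%, 36% and 34.0% in lung ILC2. The share was lower after IL-33 in 4 of 4 pairs, with a mean difference of −6.78 ± 4.70 percentage points (SD of 4 pairs, exact two-sided p = 0.13). Per count other than miR-21a-5p it was 43.3%, 26.5%, 43.4% and 41.5% in IL-33 ILC2 against 45.3%, 35.3%, 37.8% and 38.1% in lung ILC2. It was then lower in pairs 1 and 2 and higher in pairs 3 and 4. Of the 17 tested members 0 were called by edgeR, with 1 lower at an unadjusted p below 0.05. The median log2 change was 0.66 under TMM, −0.10 under size factors and −0.32 under library totals, close to that of all tested microRNAs under each scaling.

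Among its members, let-7i-5p had 153007, 38916, 91330 and 30263 CPM in IL-33 ILC2, against 202118, 51289, 76289 and 36967 CPM in lung ILC2. let-7f-5p had 34591, 37210, 68875 and 112990 CPM in IL-33 ILC2, against 63823, 60564, 50661 and 157872 CPM in lung ILC2. Both were lower in pairs 1, 2 and 4 and higher in pair 3. let-7a-5p and let-7g-5p were lower in 4 of 4 pairs by CPM, and in 3 of 4 per count other than miR-21a-5p. let-7f-1-3p, which DESeq2 called lower, had 18 counts in lung ILC2 library 2 and 0 in the other 7 libraries.

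The miR-17-92 cluster, 1 transcript whose microRNAs promote proliferation and limit Bim in lymphocytes, made up 0.289%, 3.43%, 1.35% and 2.32% of the counts in IL-33 ILC2, against 0.867%, 3.48%, 6.11% and 4.90% in lung ILC2. Its share was lower after IL-33 in 4 of 4 pairs, though in pair 2 by little, and in 3 of 4 per count other than miR-21a-5p. Of its 11 tested members 0 were called by edgeR. Of these, 1 was higher and 1 lower at an unadjusted p below 0.05. Fitted changes were above 0 for 2 and below 0 for 9, beside 249 above and 135 below among all 384. In 4 of the 11 a group had under 3 counts in all, beside 74 of the 384, and these 4 all lay below 0. The median log2 change was −0.89 under TMM, −1.65 under size factors and −1.92 under library totals, below that of all tested microRNAs each time. In libraries 2, 3 and 4 of both groups most of the share was miR-92a-3p. That microRNA is also encoded by Mir92-2 on chromosome X, so its reads cannot be assigned to the miR-17-92 transcript alone.

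The members did not move as 1. miR-92a-3p, the most abundant, had 385, 28368, 10714 and 22866 CPM in IL-33 ILC2, against 1005, 26557, 55679 and 48445 CPM in lung ILC2. It was lower in pairs 1, 3 and 4 and slightly higher in pair 2 (log2 change −0.28 ± 0.48, edgeR adjusted p = 0.84). miR-17-5p had 1773, 3401, 1237 and 180 CPM in IL-33 ILC2 against 5638, 1172, 245 and 120 CPM in lung ILC2, and was higher in pairs 2, 3 and 4 (1.38 ± 0.62, adjusted p = 0.591). miR-20a-5p, which shares the seed of miR-17-5p, had 0, 1293, 713 and 99.2 CPM in IL-33 ILC2 against 554, 2204, 1190 and 120 CPM in lung ILC2, and was lower in 4 of 4 pairs (−0.57 ± 0.90, adjusted p = 0.831). miR-19b-3p was higher in pair 1 and lower in the others (−0.89 ± 0.81, adjusted p = 0.692).

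The passenger arm miR-92a-1-5p had the smallest p of the microRNAs below 0. It had 0 counts in each IL-33 ILC2 library and 0, 12, 9 and 21 counts in lung ILC2. The level was 0, 8.50, 105 and 71.8 CPM in lung ILC2, and a count of 0 allows up to 5.95, 33.5, 6.36 and 2.02 CPM in IL-33 ILC2. In pairs 3 and 4 the lung ILC2 library thus lay above that limit, and in pair 2, where the IL-33 library was the shallow one, below it. The edgeR adjusted p was 0.278, and DESeq2 called it lower with and without the block.

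No member of the other families common in lymphocytes was called. The 2 clusters that encode miR-23, miR-24 and miR-27 made up 22.5%, 13.5%, 12.6% and 1.92% of the counts in IL-33 ILC2, against 19.2%, 14.2%, 10.5% and 1.80% in lung ILC2, higher in 3 of 4 pairs, and in 4 of 4 per count other than miR-21a-5p. Within them miR-24-3p, which is known to limit type 2 cytokine production together with miR-27 in T cells, had 214064, 84902, 24383 and 2324 CPM in IL-33 ILC2 against 162981, 69054, 33704 and 3709 CPM in lung ILC2. miR-27a-3p had 2175, 22201, 75594 and 7004 CPM in IL-33 ILC2 against 11276, 27907, 35478 and 2844 CPM in lung ILC2. miR-23a-3p had 3767, 17050, 6929 and 2304 CPM in IL-33 ILC2 against 6905, 32318, 24963 and 6929 CPM in lung ILC2. miR-23a-3p was lower in 4 of 4 pairs, also per count other than miR-21a-5p. By CPM miR-27a-3p, cut from the same transcript, and miR-24-3p, which both clusters encode, were higher in 2 pairs and lower in 2. Per count other than miR-21a-5p, miR-24-3p was higher in 3 pairs and lower in 1, and miR-27a-3p was unchanged at 2 and 2.

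The miR-29 family, whose known targets in T cells include Tbx21 and Eomes, made up 2.06%, 3.49%, 3.76% and 0.297% of the counts in IL-33 ILC2, against 3.40%, 5.55%, 5.04% and 0.488% in lung ILC2. Its share was lower in 4 of 4 pairs (exact two-sided p = 0.13), and the lead member miR-29a-3p was lower in 4 of 4 pairs also per count other than miR-21a-5p. Fitted under TMM its log2 change was 0.30 ± 0.44, and under size factors −0.46, so the sign depends on the scaling. The miR-30 family made up 0.770%, 4.78%, 3.33% and 3.52% in IL-33 ILC2 against 0.919%, 4.94%, 4.90% and 5.12% in lung ILC2, lower in 4 of 4 pairs. Per count other than miR-21a-5p it was 0.784%, 5.27%, 4.44% and 6.48% in IL-33 ILC2 against 0.934%, 5.09%, 5.15% and 5.73% in lung ILC2, lower in 2 pairs and higher in 2. The miR-15 and miR-16 family, the miR-181 family and the miR-99b cluster were each lower in 3 of 4 pairs by share of all counts. Per count other than miR-21a-5p the first and the second were lower in 2 pairs and higher in 2, and the miR-99b cluster was lower in 3. None of their 10, 6 and 6 tested members was called by edgeR or reached an unadjusted p below 0.05.

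A list of microRNAs that resting lymphocytes are known to carry at high level, with miR-150, miR-342, miR-26, miR-139 and miR-125b, had 11 tested members, 0 of them called and 0 at an unadjusted p below 0.05 by edgeR. Its share was 1.98%, 3.47%, 0.822% and 0.170% in IL-33 ILC2, against 2.74%, 3.40%, 1.17% and 0.220% in lung ILC2, lower in 3 of 4 pairs, and in 2 of 4 per count other than miR-21a-5p. miR-150-5p, which targets Myb and is lost in activated T cells, had 242, 7794, 1048 and 300 CPM in IL-33 ILC2 against 510, 4248, 2194 and 441 CPM in lung ILC2. It was lower in pairs 1, 3 and 4 and higher in pair 2 (log2 change 0.36 ± 0.53, edgeR adjusted p = 0.827). miR-125b-5p was at most 1227 CPM in IL-33 ILC2 and 1301 CPM in lung ILC2, and lower in 4 of 4 pairs (−2.09 ± 1.65, adjusted p = 0.652). miR-139-5p, at most 700 CPM in any of the libraries, had the same direction in every pair as miR-150-5p (−2.82 ± 1.57, adjusted p = 0.603).

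The arms of a hairpin come from 1 precursor, and 8 hairpins had at least 10 counts of both arms in all 8 libraries. The comparison of arms was added after the values had been seen. For miR-142a, a hairpin of blood cells, the ratio of the 5p to the 3p arm was 8.02, 17.0, 7.14 and 13.7 in IL-33 ILC2, against 0.599, 1.90, 2.53 and 6.66 in lung ILC2. It was higher in 4 of 4 pairs with no overlap between the groups, by 2.36 ± 1.30 on the log2 scale (SD of 4 pairs, exact two-sided p = 0.13, the smallest 4 pairs allow). miR-142a-5p itself had 5532, 43633, 29806 and 5038 CPM in IL-33 ILC2 and 9812, 34316, 20271 and 5438 CPM in lung ILC2, higher in 2 pairs and lower in 2. miR-142a-3p had 690, 2565, 4177 and 367 CPM in IL-33 ILC2, against 16382, 18098, 8018 and 817 CPM in lung ILC2, lower in 4 of 4. Neither arm was called (edgeR adjusted p = 0.591 for the 5p and 0.879 for the 3p arm).

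miR-30e went the other way. Its ratio of 5p to 3p arm was 0.0356, 4.78, 12.2 and 0.682 in IL-33 ILC2, against 0.488, 9.53, 49.9 and 1.19 in lung ILC2, lower in 4 of 4 pairs, with a mean difference of −1.90 ± 1.36 on the log2 scale (exact two-sided p = 0.13). The ratio of miR-28a was also lower in 4 of 4, with a mean difference of −0.37 ± 0.24. The other 5 hairpins, those of let-7d, miR-106b, miR-151, miR-342 and miR-423, had pairs in both directions. With 8 hairpins compared and no p below 0.13 possible, none of these differences could pass a threshold of 0.05.

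**Figure D5:**
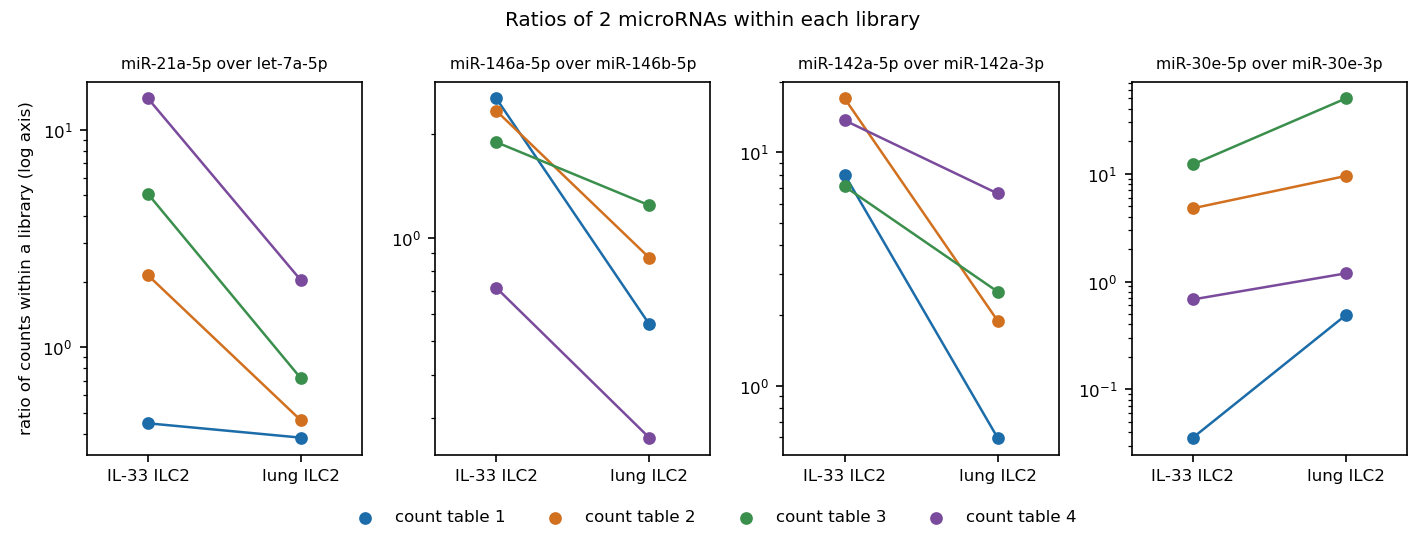
Ratios of 2 microRNAs within each library, on log axes, with IL-33 ILC2 at the left and lung ILC2 at the right of each panel and 1 line for each count table. The ratios of miR-21a-5p to let-7a-5p, miR-146a-5p to miR-146b-5p and the arms of miR-142a are higher at the IL-33 end in all 4 pairs, and the arms of miR-30e are lower.

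Seed families add up what members with 1 seed share. Besides miR-21a-5p none of the 322 families was called. The let-7 seed GAGGUAG had a log2 change of 0.40 ± 0.43. The seed AAAGUGC of miR-93-5p, miR-106b-5p, miR-17-5p and miR-20a-5p had 1.22 ± 0.59 (edgeR adjusted p = 0.65), and the seed AUUGCAC of miR-92a-3p and its relatives −0.20 ± 0.49. The seed AACAGUC of miR-132-3p and miR-212-3p had 3.93 ± 1.49 and the seed GCAGCAU of miR-103-3p and miR-107-3p 1.42 ± 0.58, each with an edgeR adjusted p of 0.578.

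Markers of other cells of the lung were present. The mesenchymal, endothelial, erythroid, epithelial and myeloid lists had lower shares after IL-33 in 3 or 4 of the 4 pairs. That direction was not particular to them. The let-7, miR-17-92, miR-29 and miR-30 lists were lower in 4 of 4, and the arms of miR-142a together in 3. Per count other than miR-21a-5p the mean mesenchymal share was 0.131% in IL-33 ILC2 against 0.709% in lung ILC2. That of the miR-142a arms was 2.81% against 2.93%. Some markers were not rare: in lung ILC2 library 2 miR-126a-3p had 19695 CPM and miR-143-3p 10143 CPM, against 9381 CPM of miR-146a-5p. In sorted bulk cells, fewer cells of a type and less RNA per cell cannot be told apart. The 10 mesenchymal entries, led by miR-143-3p, made up 0.177%, 0.188%, 0.0397% and 0.0459% of the counts in IL-33 ILC2, against 0.485%, 1.17%, 0.459% and 0.585% in lung ILC2, lower in 4 of 4 pairs with no overlap (exact two-sided p = 0.13). Of single tested microRNAs 0.26% were lower with no overlap, and that 1 was miR-143-3p. miR-143-3p alone had 1560, 1505, 138 and 275 CPM in IL-33 ILC2, against 4764, 10143, 3910 and 5684 CPM in lung ILC2. It was not called (log2 change −1.73 ± 1.70, edgeR adjusted p = 0.696). In lung ILC2 most of the share was miR-143-3p. Of the 7 tested members of the list 4 had fitted changes above 0 and 3 below, with a median of 0.15 beside 0.66 over all tested microRNAs. Among the 4, miR-199a-3p and miR-199b-3p had the same counts in every library, so they stand for 1 measurement. miR-199a-3p had 41.6, 100, 129 and 77.6 CPM in IL-33 ILC2 against 0, 489, 233 and 64.9 CPM in lung ILC2, higher in pairs 1 and 4 and lower in pairs 2 and 3. miR-145a-5p, the cluster partner of miR-143-3p, had 0 counts in 2 libraries of each group.

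The 2 endothelial entries, the arms of miR-126a, made up 0.0432%, 0.407%, 0.326% and 0.0567% in IL-33 ILC2 against 0.342%, 2.16%, 0.983% and 0.0256% in lung ILC2, lower in pairs 1, 2 and 3. The 7 erythroid entries include miR-451a and miR-486a-5p, and miR-486b-5p had the same counts as miR-486a-5p in every library. The 7 together made up 0%, 0.223%, 0.568% and 0.0468% in IL-33 ILC2 against 0.252%, 0.0256%, 1.91% and 0.149% in lung ILC2, lower in pairs 1, 3 and 4. The myeloid marker miR-223, both arms together, was at 0%, 0.00446%, 0.0087% and 0.00128% in IL-33 ILC2 against 0%, 0.0137%, 0.0969% and 0.00376% in lung ILC2. Epithelial entries reached at most 0.0546% in IL-33 ILC2 and 0.157% in lung ILC2, and were lower in pairs 2, 3 and 4. Per count other than miR-21a-5p they were higher in pair 4, at 0.0255% in IL-33 ILC2 against 0.0184% in lung ILC2. Entries of liver or muscle reached at most 0.0151% in IL-33 ILC2 and 0.00934% in lung ILC2. None of the tested markers of other cells was called by edgeR or reached an unadjusted p below 0.05. Neither miR-21a-5p nor miR-146a-5p is specific to lymphocytes, and the part of other cells in their rise was not tested.

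The imprinted Dlk1-Dio3 locus, whose many microRNAs are mostly silent in lymphocytes, had 17 of 78 entries tested and made up at most 0.0134% of the counts in IL-33 ILC2 and 0.0314% in lung ILC2. None was called, and in 11 of the 17 a group had under 3 counts in all. The Sfmbt2 locus, a large array of near-identical microRNAs to which reads cannot be assigned with certainty, had 36 of 72 entries tested, 0 called and 1 each higher and lower at an unadjusted p below 0.05 by edgeR. It made up 0.116%, 0.242%, 0.0893% and 0.0531% in IL-33 ILC2 against 0.259%, 0.147%, 0.00467% and 0.0410% in lung ILC2.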

How the data were processed

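Small RNA was sequenced from sorted cells, with 8000 to 3000000 cells lysed and 5 to 50 ng of RNA used per library, per the labels' protocols. The authors deposited 4 count tables named for exceRpt, with 871, 1141, 482 and 725 entries, whose expected counts are estimated and not always whole, and a table of RPM (reads per 1000000 of the column total) that matches the rounded counts within 1 read in 100% of values. mm10 and DESeq2 are named in the submitters' processing notes, while for the aligner and the annotation the entry is "not given in the sources used here". In all 46 value columns were used and 6, the averages made by the authors, were left out. A microRNA that a table does not list counted as 0 in it.

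Counts were rounded and tested with edgeR 4.0.16 in R 4.3.3: TMM, filterByExpr by group (384 left), 1 fit of all 23 libraries so that the spread is shared, the replicate number as a block, robust quasi-likelihood F-tests and Benjamini-Hochberg adjustment over all 384. Standard errors were derived from the F statistic. The numbers were taken to pair the libraries because each belongs to 1 count table and the deviations of the same-numbered IL-33 ILC2 and lung ILC2 libraries from their group means correlated at 0.38, 0.33, 0.35 and 0.7 over 204 microRNAs, against −0.37 to 0.076 between numbers. Deviations from a group mean sum to 0, so low correlations between numbers follow in part from positive ones within a number. Alternatives used DESeq2 1.42.0 and limma 3.58.1, the last on log2(RPM + 1). List shares and ratios were compared over the 4 pairs by exact sign-flip tests. Seeds and mature sequences came from RefSeq, where 1009 of 1256 entries matched, and entries without a match, 7.14% of the counts, were kept as families of their own. Floors cover counting error only and are 3 counts of a library. The edgeR model was also run on simulated counts, drawn without differences between count tables, so that run does not check the block.

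Members and lists were chosen with earlier results of these data known. Named were the calls, the 8 smallest p in each direction among microRNAs whose mean log2 CPM was 6 or more and whose direction was 1 in all 4 pairs, the 10 most abundant, members of the miR-17-92 cluster, miR-155-5p, miR-150-5p, miR-146b-5p, the 2 smallest p of each list, the leading marker of each other cell type and microRNAs sharing a seed with a call. Where another is named, the text says so or gives it as a list member.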

Additional observations from a re-analysis of the deposited data

Results flagged for a closer look

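In 10 of 196 groups of 4 libraries examined, the highest or lowest library stood apart from the other 3 by Dixon's test, and chance alone would mark about 1 in 20. All 10 lay in lung ILC2. In lung ILC2 library 1, miR-30d-5p had 1318 CPM where the others had 19408 to 32534, and the miR-30 family made up 0.919% of the counts where the others had 4.90% to 5.12%. In the same library miR-181d-5p and miR-181b-5p had 0 CPM where the others had 595 to 2147 and 350 to 694. A count of 0 allows up to 21.9 CPM there. The test took each 0 as it stands, on the scale log2(CPM + 1), and was not repeated at that limit. Flags at 0 CPM thus rest in part on where a 0 is placed. In lung ILC2 library 3, miR-27a-5p had 0 CPM where the others had 718 to 1110, and the myeloid and erythroid markers made up 0.0969% and 1.91% of the counts where the others reached at most 0.0137% and 0.252%. In lung ILC2 library 4, the ratio of miR-21a-5p was 159 to miR-16-5p where the others had 2.48 to 4.56, and 23 to miR-29a-3p where the others had 0.519 to 0.965. Its ratio of miR-146a-5p to let-7f-5p was 0.016 where the others had 0.155 to 0.181. Some of these traits were also seen in the IL-33 ILC2 library of the same number. In IL-33 ILC2 library 1, miR-30d-5p had 1289 CPM where the others had 13555 to 31579. In IL-33 ILC2 library 4, the ratio of miR-21a-5p to miR-16-5p was 826 where the others had 5.24 to 44. Others were not: miR-181d-5p had 333 CPM in IL-33 ILC2 library 1 and miR-27a-5p 1774 CPM in IL-33 ILC2 library 3. Beyond the count table of each number, nothing in the labels sets these libraries apart, and the reasons were not tested.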

How the results depend on the processing

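The 2 calls of the reported fit became 0 without the replicate block, with library totals that leave out miR-21a-5p, with only the 8 libraries in the fit, and with limma on RPM. There was 1 call with DESeq2 size factors, with library totals, without the filter on low counts, and with at least 10 counts in 12 libraries. Leaving out 1 library or both libraries of a pair gave 0 to 3 calls. The single seed family called became 0 without the block, with only the 8 libraries, and, in an alternative added after the data were seen, without the 2 shallowest libraries, and it ranged from 0 to 3 when libraries were left out. The log2 change of miR-21a-5p was above 0 in all 23 alternatives and that of miR-146a-5p likewise. The difference in the share of the activation list, 17.2 percentage points, was 2.27 per count other than miR-21a-5p. The causes of the lost calls were not tested. No alternative reversed the sign of a called value. The shallowest libraries, IL-33 ILC2 library 2 and lung ILC2 library 3, allow up to 33.5 and 35 CPM at a count of 0, so microRNAs below that level cannot be compared in those pairs.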
